A study of Mus musculus with 144 samples.

Results

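Genes of the Ran cycle and of Ran-dependent nuclear transport are described here in single retinal cells of mice after optic nerve crush. They are the 10 genes Ran, Rcc1, Rangap1, Ranbp1, Ranbp2, Nutf2, Kpnb1, Kpna2, Cse1l and Xpo1, out of 55254 gene symbols in the deposited table. The set was built around Ran and Ranbp1, which were chosen by their day 4 minus untreated differences, among the highest of all genes, and it was filled with other genes of the same pathway. The day 4 values of Ran and Ranbp1 are therefore a description of what was selected, and no test supports them.

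The cells were sorted from retinas of the Iba1-EGFP strain at 16 weeks of age, in which a green fluorescent protein reports Iba1, a calcium-binding protein that microglia and macrophages make. The groups were 54 cells of untreated retinas (day 0), 54 cells taken 2 days after crush and 36 cells taken 4 days after crush. Crush of the optic nerve damages the axons that retinal ganglion cells send to the brain. Each of 3 plates carried 18 untreated, 18 day 2 and 12 day 4 cells, with the time points in different rows, so well position and time cannot be told apart. All groups carried the reporter, and the labels name no animal and no sham operation. Each time point is therefore 1 sample of cells: no test was made, and an SD gives the spread between cells.

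Ran is a small GTPase that gives direction to traffic through nuclear pores. Its exchange factor Rcc1 sits on chromatin and loads Ran with GTP in the nucleus, while Rangap1, helped by the Ran-binding proteins Ranbp1 and Ranbp2, triggers GTP hydrolysis in the cytoplasm, and Nutf2 carries the GDP form back into the nucleus. Import receptors such as Kpnb1 release their cargo when they meet Ran-GTP, whereas exporters such as Cse1l and Xpo1 bind cargo together with it. In dividing cells the same cycle guides spindle assembly and the rebuilding of the nuclear envelope.

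Depth ran from 0.190 to 18.9 M reads per cell (M, 1e+06) around a median of 5.31 M, and 3 cells lay below 1 M. At least 3 of 10 microglia markers reached 20 FPKM (fragments per kilobase of gene length and 1e+06 reads) in 54 of 54 untreated, 54 of 54 day 2 and 36 of 36 day 4 cells. Cells holding at least 3 markers of border macrophages at that level numbered 6 among untreated, 8 among day 2 and 2 among day 4 cells, and 3, 0 and 2 cells did so for rod photoreceptors. For Müller glia the numbers were 9, 7 and 5, by a list that holds Apoe, Vim and Clu, and its markers Dkk3 and Aqp4 reached 20 FPKM in no cell. Monocyte and neutrophil markers did so in 1 cell each and those of ganglion cells in 1. The median number of genes detected at 1 FPKM was 2792 in untreated, 3469 in day 2 and 3957.5 in day 4 cells. At least 3 of 15 cell cycle markers reached 20 FPKM in 2 untreated, 12 day 2 and 10 day 4 cells. The last pair of measures moved with time as several of the genes did, and their part in the differences was not tested beyond the values given with the results.

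All 10 genes passed the filter of 1 FPKM in at least 10% of cells, which 8679 symbols passed. Xpo1 passed it only through the day 4 cells: 1 of 54 untreated, 6 of 54 day 2 and 11 of 36 day 4 cells reached 1 FPKM. A gene was called higher or lower when its mean log2(FPKM + 1) differed by at least 1 over all cells and had the same sign in each of the 3 plates. A cell was called high for a gene at 20 FPKM or more, and 95% Clopper-Pearson intervals of such shares cover counting error only.

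Ran, Ranbp1 and Nutf2 were high in most cells of day 4 and in a minority of the cells of the other times. Between untreated cells and day 4, 7 of the 10 genes were called higher: these 3 and Rangap1, Ranbp2, Kpnb1 and Xpo1. The same call was met by 18.9% of all measured genes. None was called lower, against 0.346% of all measured genes. By role, 5 of the 6 genes of the Ran cycle and 2 of the 4 transport receptors were called. The median difference was 1.35 over the 10 genes and 0.45 over all measured genes. Because this contrast chose Ran and Ranbp1, nothing is read from the count. The count was 4 once the median difference of all genes was subtracted, a setting that called 9.03% of all measured genes. It was 3 with a pseudocount of 10 (5.21% of all measured genes) and 2, Ranbp1 and Nutf2, with the number of detected genes as covariate (6.13%).

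Day 2 gave no call against untreated cells in either direction, where 3.89% of all measured genes were called higher and 0.0576% lower. Without plate 1, Ran and Kpna2 met the call at day 2, as did 9.54% of all measured genes, and Cse1l met it when the mean FPKM was used, as did 8.04%. These counts, 2 and 1 of the 10 genes, are too small to set against those shares. The median difference at day 2 was 0.32 over the 10 genes and 0.21 over all measured genes. Day 4 against day 2, which shares the day 4 cells with the contrast that chose the set, gave 5 genes called higher: Ran, Ranbp1, Ranbp2, Nutf2 and Kpnb1. Among all measured genes 9.57% were called higher and 0.864% lower, and none of the 10 was lower. With a pseudocount of 10 the count was 3, against 2.58% of all measured genes. The median difference was 0.95 over the 10 genes and 0.25 over all measured genes.

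**Figure D1:**
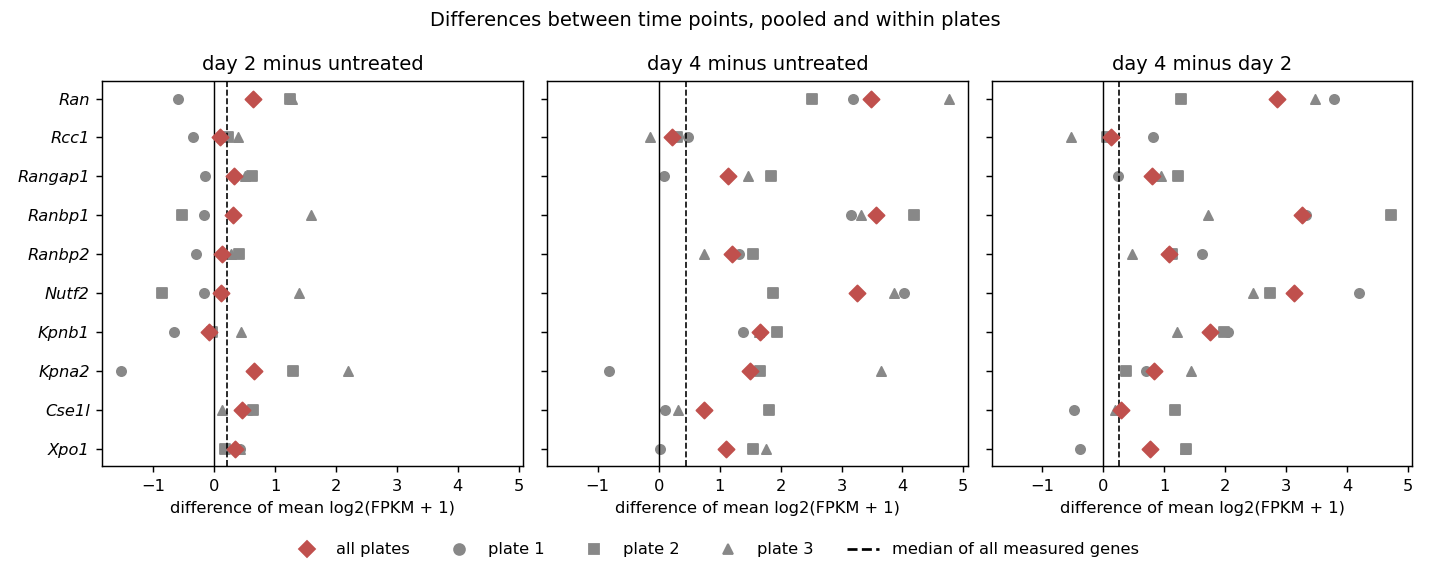
Difference of mean log2(FPKM + 1) for each of the 10 genes in the 3 comparisons; diamonds pool all cells, grey symbols are the 3 plates and the dashed line is the median of 8679 measured genes. Ran, Ranbp1 and Nutf2 lie above 3 for day 4 minus untreated over all plates. For day 2 minus untreated the plates scatter on both sides of 0, except for Cse1l and Xpo1, which lie above 0 in every plate.

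Upstream sequence is given for the genes with the 3 largest differences, Ran, Ranbp1 and Nutf2. RefSeq promoter windows on GRCm38.p6 were found by symbol for 9 of the 10 genes, in 10 windows of 250 bases before the start. Each was searched on both strands for CACGTG (the E-box of Myc-type factors), CGCATGCG (NRF1), TTTCCCGC, TTTGGCGC, TTTCGCGC or TTTGCCGC (E2F) and TTTGAA (the cell cycle homology region, CHR). These letters occur in 6.02%, 1.55%, 1.86% and 15.99% of 32851 such windows, and no 2 matches named here overlap. Matches are in capitals in the sequences that follow, and stretches that lie in annotated exons were left off for Ran and for Nutf2, of which the first of 2 windows is shown. The window of Ranbp1 lies in exons of Ranbp1 and Trmt2a, and only 30 bases around its sites are given.
Ran, chr5:129019906-129020068, plus strand: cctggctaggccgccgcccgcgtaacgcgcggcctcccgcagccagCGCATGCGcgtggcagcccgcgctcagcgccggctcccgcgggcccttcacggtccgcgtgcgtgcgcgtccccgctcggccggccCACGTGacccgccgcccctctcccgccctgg
Ranbp1, chr16:18248720-18248749, minus strand: gtTTTGAAtcactgcgcgTTTCCCGCcgct
Nutf2, chr8:105860423-105860532, plus strand: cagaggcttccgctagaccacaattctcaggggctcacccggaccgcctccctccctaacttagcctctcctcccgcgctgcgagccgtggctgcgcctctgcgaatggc
The Ran window holds the NRF1 letters at −204 to −197 and an E-box at −118 to −113 from the start. Ranbp1 holds a CHR at −53 to −48 and an E2F match at −37 to −30, and neither window of Nutf2 holds any of the motifs. Of the other genes, Ranbp2 holds an E-box, and Rcc1 and Kpna2 hold a CHR. The 3 genes with like values thus shared none of the searched letters, and a match is a description of sequence, not of binding.

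Ran, the GTPase itself, lies on chromosome 5 of GRCm38 (129020069 to 129024323, plus strand). In untreated cells its lowest, median and highest values were 0.243, 2.97 and 614 FPKM. In day 2 cells they were 0.284, 4.42 and 916 FPKM, and in day 4 cells 0.154, 229 and 1109 FPKM. The groups overlapped over most of their range, and over all plates only the day 4 median lay in the high range. On plate 2 the day 2 median did so too, at 109 FPKM. Ran was high in 18 untreated cells (33.3%, interval 21.1% to 47.5%), in 23 day 2 cells (42.6%, 29.2% to 56.8%) and in 30 day 4 cells (83.3%, 67.2% to 93.6%). Each plate held 10 high cells of 12 at day 4, against 5, 8 and 5 of 18 untreated cells on plates 1, 2 and 3. At day 2 the plates held 4, 11 and 8 high cells of 18. Few cells lay between the low and the high range: values from 10 to 40 FPKM were found in 2 untreated, 2 day 2 and 1 day 4 cells. Among the high cells alone, the median was 163 FPKM in untreated, 172 FPKM in day 2 and 249 FPKM in day 4 cells. By plates 1, 2 and 3 it was 205, 239 and 428 FPKM at day 4, against 218, 163 and 86.2 FPKM in untreated cells. Plate 1 thus went the other way, and the plates did not share a direction.

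The mean log2(FPKM + 1) of Ran was 3.46 ± 2.82 in untreated, 4.10 ± 3.19 in day 2 and 6.95 ± 2.72 in day 4 cells (SD between cells). Ran differed by 3.49 between day 4 and untreated cells, rank 9 of 8679 genes, and 3.20, 2.52 and 4.76 in plates 1, 2 and 3. Day 4 minus day 2 was 2.85. Day 2 minus untreated was 0.65, with plate 1 at −0.59 and plates 2 and 3 at 1.24 and 1.29, so no day 2 direction was shared by the plates.

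Rcc1, the exchange factor, did not show the pattern of Ran. It was high in 4 untreated, 3 day 2 and 2 day 4 cells, and its median was under 0.1 FPKM at every time. The day 4 minus untreated difference was 0.21 on the log2 scale, with plate 3 at −0.14, while the mean was 3.14 FPKM in day 4 and 4.54 FPKM in untreated cells. The log2 mean and the mean FPKM thus pointed in opposite directions, and the difference of log2 means was −0.23 once the median difference of all genes was subtracted. The exons of Rcc1 overlap those of the small nucleolar RNA host gene Snhg3, and 72.6% of its values above 0 were not whole reads.

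**Figure D2:**
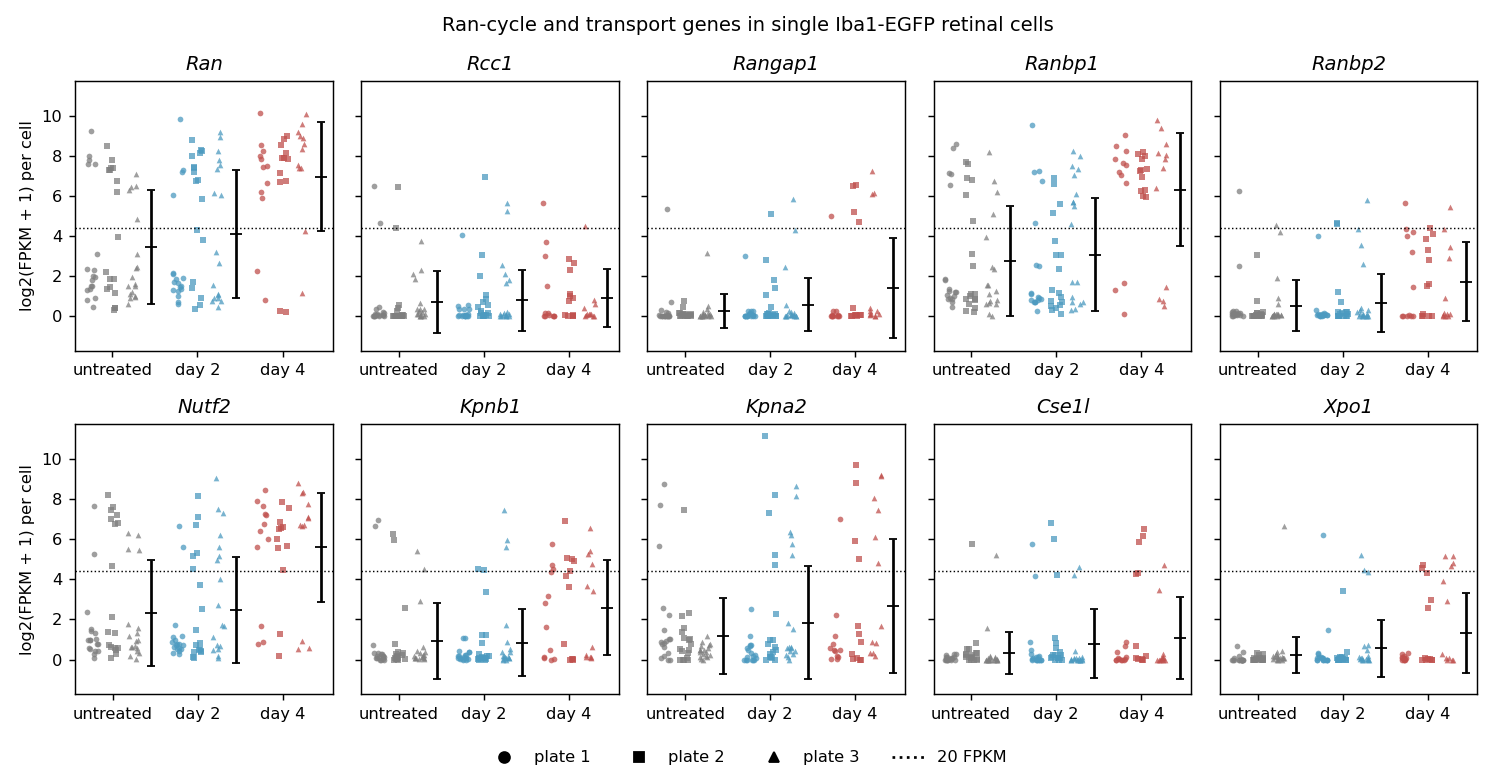
log2(FPKM + 1) of the 10 genes in each cell, by time point and plate; bars give the mean and SD over cells and the dotted line marks 20 FPKM. Ran, Ranbp1 and Nutf2 form a low and a high band, with 30, 29 and 28 of 36 day 4 cells in the high band. The bands are less apart for Nutf2 at day 2, where 7 of 54 cells had 10 to 40 FPKM.

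Ranbp1, which binds Ran-GTP and assists Rangap1 (chromosome 16, 18239784 to 18248732, minus strand), had the largest difference of the 10 genes. The lowest, median and highest values were 0, 1.34 and 380 FPKM in untreated cells, 0.0736, 1.89 and 742 FPKM in day 2 cells and 0.0920, 160 and 888 FPKM in day 4 cells. As for Ran, the day 4 median stood within the high band while the ranges overlapped. Ranbp1 was high in 15 untreated (27.8%, 16.5% to 41.6%), 19 day 2 (35.2%, 22.7% to 49.4%) and 29 day 4 cells (80.6%, 64.0% to 91.8%). On plate 2 all 12 day 4 cells were high, against 6 of 18 untreated cells. At day 2 the plates parted, with 5, 4 and 10 high cells of 18. Its high cells had a median of 119 FPKM in untreated, 106 FPKM in day 2 and 197 FPKM in day 4 cells. By plates 1, 2 and 3 it was 197, 153 and 270 FPKM at day 4, against 143, 114 and 89.2 FPKM in untreated cells. Unlike for Ran, this median was thus higher at day 4 on each plate, for a gene that this contrast chose. The mean log2(FPKM + 1) was 2.76 ± 2.75 in untreated, 3.07 ± 2.82 in day 2 and 6.32 ± 2.82 in day 4 cells. The difference of day 4 minus untreated was 3.56, rank 8 of 8679, with 3.16, 4.20 and 3.32 in the plates, and day 4 minus day 2 was 3.25, rank 3.

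Rangap1, the GTPase-activating protein, was near 0 in most cells. Its highest values were 40.3 FPKM in untreated, 57.0 FPKM in day 2 and 152 FPKM in day 4 cells, and its median stayed under 0.1 FPKM at every time. The 8 high cells of day 4 (22.2%, 10.1% to 39.2%) compare with 1 untreated (1.85%, 0.0469% to 9.89%) and 2 day 2 cells. Its difference of day 4 minus untreated was 1.13, but plates 1, 2 and 3 gave 0.087, 1.85 and 1.46, so plate 1 added almost nothing. Rangap1 was called higher in 6 of 13 alternative settings.

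Ranbp2, a giant nucleoporin of the cytoplasmic pore filaments that binds Ran and holds Rangap1 at the pore, differed below the 20 FPKM line. High cells numbered 2 untreated, 3 day 2 and 3 day 4 cells, whereas cells at 1 FPKM or more numbered 6, 8 and 17. The mean log2(FPKM + 1) was 0.53 ± 1.26 in untreated, 0.66 ± 1.44 in day 2 and 1.73 ± 1.96 in day 4 cells. Day 4 minus untreated was 1.20, with 1.33, 1.54 and 0.74 in the plates, and day 4 minus day 2 was 1.07. The call for day 4 minus untreated was met in 8 of 13 alternative settings.

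Nutf2, the import carrier of Ran-GDP (chromosome 8, 105860580 to 105879330, plus strand), had shares of high cells near those of Ran and Ranbp1. Its lowest, median and highest values were 0.0192, 0.991 and 297 FPKM in untreated cells, 0.0520, 0.885 and 529 FPKM in day 2 cells and 0.134, 97.7 and 451 FPKM in day 4 cells. The day 4 group again had its median in the high band, with overlapping ranges. Nutf2 was high in 14 untreated (25.9%, 14.96% to 39.7%), 15 day 2 (27.8%, 16.5% to 41.6%) and 28 day 4 cells (77.8%, 60.8% to 89.9%). Among the high cells alone, the median was 110 FPKM in untreated, 72.8 FPKM in day 2 and 111 FPKM in day 4 cells. Within plates 1, 2 and 3 it was 147, 92.6 and 135 FPKM at day 4, against 119, 138 and 58.8 FPKM in untreated cells, so the plates did not share a direction. Its mean log2(FPKM + 1) was 2.34 ± 2.63 in untreated, 2.46 ± 2.64 in day 2 and 5.59 ± 2.72 in day 4 cells. Nutf2 differed by 3.25 between day 4 and untreated cells, rank 18 of 8679, with 4.03, 1.87 and 3.86 in the plates, and by 3.13 between day 4 and day 2 cells. At day 2 the difference from untreated cells was 0.12, with −0.17, −0.86 and 1.39 in the plates.

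Kpnb1, importin beta 1, which carries cargo through the pore (chromosome 11, 97159714 to 97187881, minus strand), was the receptor of the set whose difference of day 4 minus untreated exceeded 1 in every plate. Its lowest, median and highest values were 0, 0.129 and 121 FPKM in untreated cells, 0, 0.123 and 172 FPKM in day 2 cells and 0, 7.01 and 120 FPKM in day 4 cells. The ranges coincided and the middle of the distribution differed. Kpnb1 was high in 6 untreated (11.1%), 5 day 2 (9.26%) and 12 day 4 cells (33.3%, 18.6% to 50.97%), and 12 day 4 cells had 10 to 40 FPKM, against 1 untreated cell. The high cells had a median of 32.1 FPKM at day 4, against 68.7 FPKM in the 6 untreated ones. By plates 1, 2 and 3 it was 25.6, 31.5 and 39.8 FPKM at day 4, against 111, 68.7 and 31.9 FPKM in untreated cells with 2 high cells a plate, and plate 3 went the other way. The mean log2(FPKM + 1) was 0.92 ± 1.89 in untreated, 0.83 ± 1.67 in day 2 and 2.58 ± 2.38 in day 4 cells. Day 4 minus untreated was 1.66, with 1.39, 1.95 and 1.65 in the plates, and day 4 minus day 2 was 1.75.

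Kpna2, an importin alpha adaptor that links cargo to Kpnb1 and is known to peak in dividing cells, had plates that differed in direction. Its highest value was 426 FPKM in untreated, 2229 FPKM in day 2 and 824 FPKM in day 4 cells, and its median was under 1 FPKM throughout. High cells numbered 4 untreated (7.41%), 11 day 2 (20.4%) and 11 day 4 cells (30.6%). By plates 1, 2 and 3 they were 3, 1 and 0 untreated cells, 0, 5 and 6 day 2 cells, and 1, 4 and 6 day 4 cells. Day 4 minus untreated was 1.497 over all cells but −0.82 on plate 1 and 1.66 and 3.64 on plates 2 and 3, and day 2 minus untreated was 0.66, with −1.52 on plate 1. Kpna2 therefore met no call. Cells with at least 3 cell cycle markers numbered 1, 1 and 0 untreated, 1, 6 and 5 day 2 and 2, 5 and 3 day 4 cells on these plates. Without the cells that held such markers, the day 4 minus untreated difference of Kpna2 was 1.11.

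Cse1l, which exports importin alpha back to the cytoplasm, was high in 2 untreated, 4 day 2 and 4 day 4 cells. Its highest value was 53.97 FPKM in untreated, 112 FPKM in day 2 and 88.7 FPKM in day 4 cells. Its day 4 minus untreated difference was 0.75, of which plate 2 gave 1.82 and plates 1 and 3 gave 0.11 and 0.32, and it met no call. Xpo1, the exporter of proteins with leucine-rich export signals, was high in 1 untreated (1.85%), 3 day 2 (5.56%) and 6 day 4 cells (16.7%, 6.37% to 32.8%). Its highest value was 100.2 FPKM in untreated, 72.6 FPKM in day 2 and 34.7 FPKM in day 4 cells, so the untreated group held the cell with the most Xpo1. The day 4 minus untreated difference was 1.11, from 0.028 on plate 1 and 1.54 and 1.76 on plates 2 and 3. Xpo1 was called higher by a margin that rests on the sign of plate 1, where no cell of day 4 was high. Since Xpo1 passed the filter on low values only through the day 4 cells, nothing is read from its call.

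**Figure D3:**
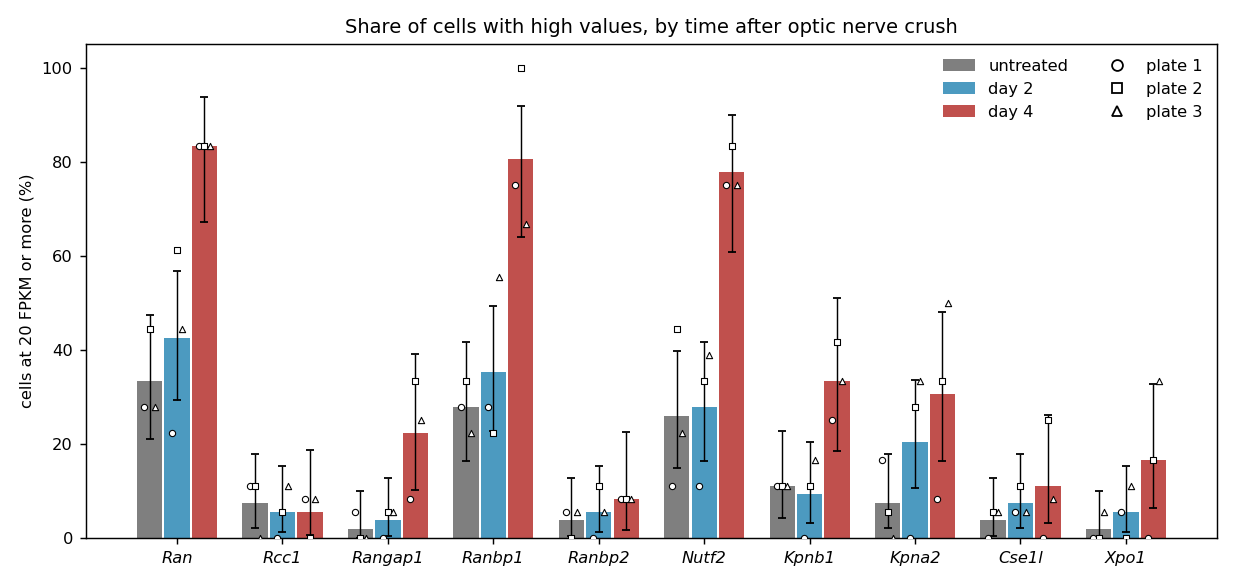
Percent of cells at 20 FPKM or more for the 10 genes; bars pool the cells of a time point, error bars are 95% Clopper-Pearson intervals and open symbols are the 3 plates. The day 4 bars of Ran, Ranbp1 and Nutf2 stand at 83.3%, 80.6% and 77.8%, above every plate of the other times.

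At day 4 most cells were high for several of the genes. A cell was high for a median of 1 of the 10 genes in untreated, 1 in day 2 and 3.5 in day 4 cells, and no cell was high for more than 7. At least 3 genes were high in 5 untreated (9.26%, 3.08% to 20.3%), 13 day 2 (24.1%, 13.5% to 37.6%) and 28 day 4 cells (77.8%, 60.8% to 89.9%). Of the 13 day 2 cells, 8 were on plate 3 and 1 on plate 1, whereas day 4 had 8, 11 and 9 cells of 12 on the plates. Cells with none of the 10 genes high numbered 18 untreated, 14 day 2 and 1 day 4 cell. Ran, Ranbp1 and Nutf2 were all 3 high in 4 untreated (7.41%, 2.06% to 17.9%), 6 day 2 (11.1%, 4.19% to 22.6%) and 23 day 4 cells (63.9%, 46.2% to 79.2%). These counts include Ran and Ranbp1, which were chosen by their day 4 minus untreated differences. The median number of detected genes also differed, at 2792 in untreated and 3957.5 in day 4 cells. A matching count per cell over all measured genes was not made, so the counts only describe this set.

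**Figure D4:**
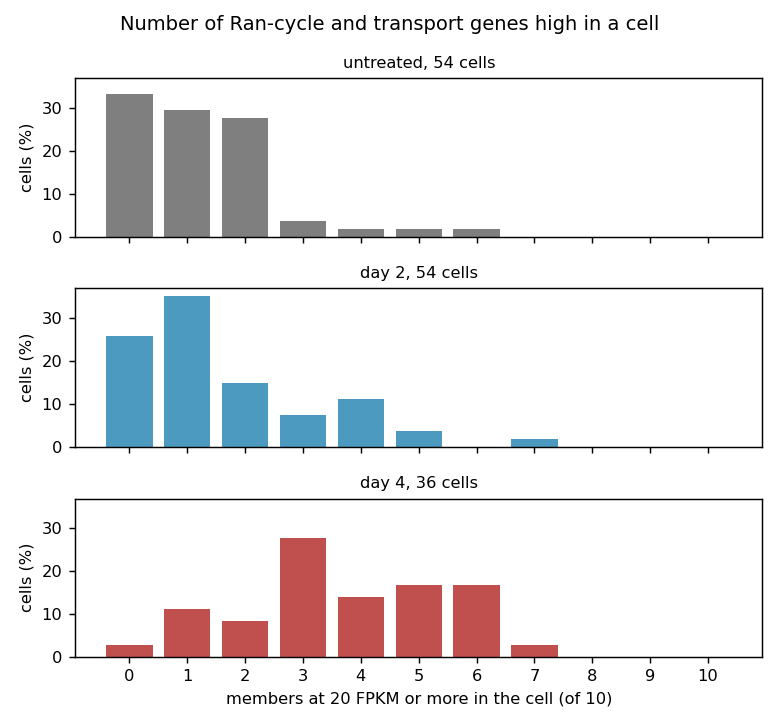
Number of the 10 genes at 20 FPKM or more in a cell, as the percent of cells of each time point. Untreated cells crowd at 0 to 2 genes, while 28 of 36 day 4 cells hold 3 or more. The count includes Ran and Ranbp1, which were chosen by their day 4 minus untreated differences.

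Within a time point and plate, the genes varied largely apart from each other. After the mean of each of the 9 combinations of time and plate was subtracted, Pearson's r between pairs over the 54 untreated, 54 day 2 and 36 day 4 cells ran from −0.064 to 0.33. The highest pairs were Cse1l with Rangap1 (0.33), Ranbp2 with Xpo1 (0.31) and Rangap1 with Rcc1 (0.31). Ran had an r of 0.15 with Ranbp1 and 0.18 with Nutf2, near its median of 0.11 over 2256 genes found in at least 30% of cells. The cells share plates and the number of detected genes, with which the r of the 10 genes ran from 0.13 for Nutf2 to 0.40 for Rangap1, so these values are given as a description only. They are weak, and nothing is drawn from their order.

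**Figure D5:**
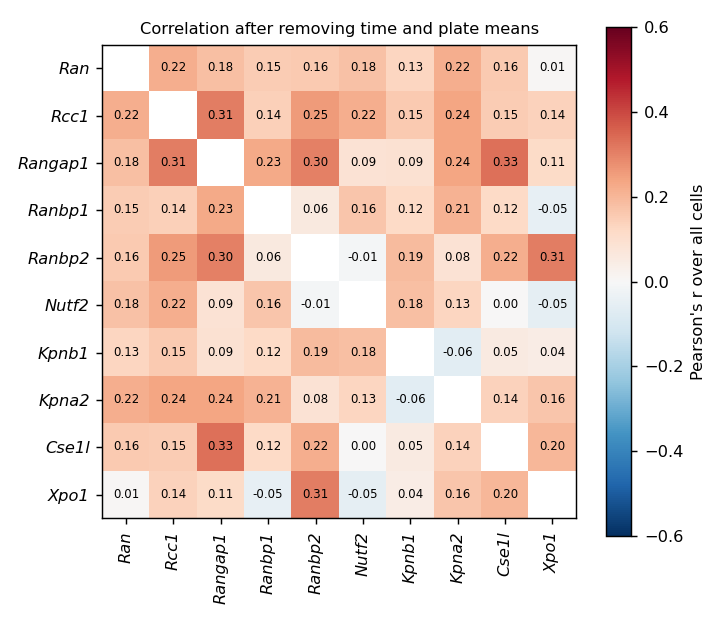
Pearson's r between the 10 genes over all cells, after the mean of each time and plate was subtracted from log2(FPKM + 1). No pair exceeds 0.33, and Ran with Ranbp1 stands at 0.15.

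The number of cell cycle markers high in a cell was closer to some genes than to others. Its r was 0.54 with Kpna2, 0.49 with Rangap1 and 0.46 with Rcc1, and 0.32 with Ran, 0.23 with Ranbp1 and 0.15 with Nutf2. Without the cells that held at least 3 cell cycle markers, day 4 minus untreated was 3.32 for Ran, 3.28 for Ranbp1 and 3.06 for Nutf2. With all cells these differences were 3.49, 3.56 and 3.25. For Rangap1 the difference without these cells was 0.63 and for Ranbp2 0.88, both under the call. Kpnb1 stood at 1.19 without these cells, against 1.66 with all cells, and was still called. The median gene of those measured stood at 0.31 without these cells and at 0.45 with all cells. Rangap1 (0.995) and Ranbp2 (0.88) also lost the call when the cells holding markers of other types were left out instead, where the median gene stood at 0.49. The part of the cell cycle in the differences was not tested. With the genes of the series title, the r of Ran was 0.097 for Gpr84, 0.15 for Tnf and 0.036 for Il1a. Over the 10 genes the highest such values were 0.39 for Ranbp2 with Gpr84, 0.25 for Ranbp2 with Il1a and 0.23 for Ranbp1 with Tnf. The pattern most like that of Ran was found for Higd1a (0.372), Tmed9 (0.372), Cfdp1 (0.368), H2az1 (0.363) and Snrpd3 (0.361). Most like the mean of the 10 standardised genes were Drg1 (0.479), Anp32e (0.467), Hmgb2 (0.461), Bub3 (0.461) and Ppp1cc (0.458), where the median gene had 0.18. With the number of detected genes, the r of the genes from Drg1 to Ppp1cc ran from 0.33 to 0.43. For those from Higd1a to Snrpd3 it ran from 0.16 to 0.39. The share of values above 0 that were not whole reads was highest for Hmgb2 (91.7%), H2az1 (91.0%) and Ppp1cc (72.3%).

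Other parts of the transport machinery are given for day 4 against untreated cells, where 18.9% of all measured genes were called higher. Of 15 further import receptors 11 were measured and 2 were called higher, the importin alpha Kpna3 (difference 1.66, high in 10 day 4 and 1 untreated cell) and Ipo5 (1.41), an import receptor for ribosomal proteins and histones. Kpna1 stood at 0.83, and the lowest were Kpna7 (−0.12) and Ipo11 (−0.40). The median of the list was 0.43, close to the 0.45 of all measured genes. Of 5 further exportins only Xpo6, the exporter of actin, was measured, at 0.13. Of 8 other Ran-linked genes 5 were measured and none was called, among them Rcc2 at 0.83, Ranbp10 at 0.60 and Ranbp3 at 0.22.

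Among nucleoporins, the proteins of the pore itself, 13 of 28 were measured and 4 were called higher, with a list median of 0.86. The highest were Nup62 (1.65), which lines the central channel, Sec13 (1.23), which also coats secretory vesicles, and Aaas (1.11), and the lowest Nup188 (0.55) and Nup37 (0.26). Of 14 genes of mRNA export, a route that does not use Ran, 11 were measured and 3 were called: the helicase Ddx39b (1.69), Nxt1 (1.65), the partner of the export receptor Nxf1, and the adaptor Alyref (1.37). The lowest of that list were Thoc2 (−0.13) and Pcid2 (−0.24), and its median was 0.58. Of 15 cell cycle markers 12 were measured and 7 were called higher, with a median of 1.10. Pcna (1.92), Tyms (1.65) and Cdk1 (1.40) were highest and Prc1 (0.46) and Ccnb2 (0.25) lowest. No gene of these 6 lists was called lower, and at day 2 none was called in either direction.

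Near-identical gene copies bear on Ran, Nutf2 and Kpna2. Annotated copies with at least 90% identity over 200 bases held 34.98% of the reads assigned to Nutf2 and its copies, and the share was 35.5% in untreated, 34.3% in day 2 and 35.1% in day 4 cells. For Ran the share was 5.67%, for Kpna2 9.36% and for Ranbp1 0.0362%. Adding the reads of the copies, an alternative chosen after seeing the data, left 7 genes called higher at day 4 against untreated cells. Among all measured genes 18.9% were called in that setting. Values that were not whole reads made up 74.3% of those above 0 for Ran, 76.2% for Ranbp1, 93.75% for Nutf2 and 78.6% for Kpna2. The levels of these genes are therefore uncertain, by an amount that was not measured. The exons of Ranbp1 overlap those of Trmt2a and Gm49776, those of Rangap1 overlap Zc3h7b and those of Kpnb1 overlap Gm11583, and without use of strand these reads cannot be told apart.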

How the data were processed

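Single cells were sequenced as 1 tagmentation library each, per the labels' protocols. Per the submitters' processing notes, STAR 2.7.2b and featureCounts 1.6.1 served together with cutadapt 1.16, Trimmomatic 0.36 and Trim Galore 0.4.4, on GRCm38.p6 and mm10. The authors deposited FPKM values for 55364 gene rows. Of rows that repeat a symbol, the one with the highest mean was taken. Depth was recovered from the value of 1 read in each cell; a median of 59.4% of values above 0 were whole within 0.01 read, so no count model was used.

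Mean log2(FPKM + 1), with a pseudocount of 1, was compared between time points over all cells and within plates, in Python 3.11.15 with numpy 2.4.6, pandas 2.3.3 and scipy 1.17.1. Such differences understate changes of low genes. Near copies were found with BLAST 2.17.0 among annotated transcripts. Cells were grouped by their labels, which give a plate number but do not say what else the plates differ in. The scripts were tested on simulated data. The 10 genes, the lists and the tests were chosen with earlier results of these data known. Every one of the 10 genes is named, and from each other list the 3 highest and 2 lowest differences of day 4 minus untreated. Some genes that this rule takes are not reported here. For likeness, the 5 genes with the highest r are named. No 2 cells held the same values: even in the most similar pair 1 gene differed by 3932 FPKM. Intervals of shares cover the counting of cells only, since the labels name no animal. The labels also mention no molecular identifiers. Alternatives covered pseudocounts, plates, scaling, detected genes, depth and cell subsets.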

Additional observations from a re-analysis of the deposited data

How the results depend on the processing

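For day 4 minus untreated, 7 of the 10 genes were called higher, 3 with a pseudocount of 10 (5.21% of all measured genes), 4 after subtracting the median difference of all genes of 0.45 (9.03%) and 2 when each cell's detected genes entered as covariate (6.13%). Ranbp1 and Nutf2 were called in all 13 alternatives, with differences of 2.14 to 4.06 and 1.88 to 3.94. Ran, at 2.16 to 3.98, was called in 12, and with detected genes as covariate its difference was 2.49 with plate 2 at −0.027. Without plates 1, 2 and 3 the counts were 9, 5 and 5, beside 25.3%, 16.6% and 25.4% of all measured genes. Without cells holding markers of other types the count was 5 (20.9% of all measured genes), as it was without those holding cell cycle markers (13.8%). For day 2 minus untreated the count was 0, but 1 (Cse1l) from the log2 of the mean FPKM, where 8.04% of all measured genes were called, and 2 (Ran and Kpna2) without plate 1 (9.54%). For day 4 minus day 2 it was 5, and 3 with a pseudocount of 10 (2.58%). Counts of that comparison in the other settings are not given here, and its call of Ranbp2, at 1.07, lay close to the limit. Kpnb1 was called for day 4 minus untreated in 10 alternatives, Ranbp2 and Xpo1 in 8, Rangap1 in 6, Cse1l in 3, Kpna2 in 1 and Rcc1 in 0 (−0.42 to 0.58). Among the alternatives, the adding of near copies could not change Kpnb1, Ranbp2, Xpo1, Rangap1, Cse1l or Rcc1, which had no reads in copies. With no filter on low values, the calls took in 2.995%, 0.614% and 1.52% of all genes for day 4 and day 2 against untreated and day 4 against day 2. Thinning to 2e+06 reads left out 4 untreated and 9 day 2 cells and kept 7 calls (19.3% of all measured genes). The cause of these shifts was not tested. Every plate held all 3 time points, so each difference was also taken within plates, and no model with a block was fitted.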
